A study of Mus musculus with 16 samples.

Results

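Plagl1, also known as Zac1 or Lot1, encodes a zinc-finger transcription factor of the PLAG family. The gene, ENSMUSG00000019817.18, is 1 of the 50600 genes counted in every library, and it was selected on its own measured allelic ratios, which lie at opposite extremes in different clones. Its Cast shares are therefore given as a description, with no test of the pattern that chose it. The study asked how some autosomal genes come to be expressed from a single allele in clonal cell lines. It used hybrid mouse cells of the strain 129Sv x Cast/EiJ, with 129 as the maternal and Cast as the paternal genome, so that an RNA-seq read covering a polymorphism can be assigned to a parent. There were 16 libraries from 12 clones, 11 of neural progenitor cells (NPC) and 5 of astrocytes. Embryonic stem cells were differentiated into NPC, these were thinned out, and colonies taken by hand founded the clones. The NPC clones Ch3, Ch5, Ch7 and Ch8 (male) gave 2 libraries apiece, from RNA freed of its ribosomal part. The NPC clones F5 (female), mG2 and mG6 (male) gave 1 poly(A)-enriched library each. The astrocytes were differentiated from other NPC clones, named 129, C2 and G4 (female) and mC3 and mE6 (male), and gave 1 poly(A)-enriched library each. Each line is 1 clone, no astrocyte value has a replicate, and the preparation of the Ch clones cannot be told apart from the clones themselves.

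Plagl1 is an imprinted gene. In most tissues only the paternal copy is active, because the promoter on the maternal chromosome is methylated in the oocyte and kept so in somatic cells. Its product halts the cell cycle and can induce apoptosis, and it has been placed in a network of imprinted genes that control growth. In the brain it is made in progenitors, and altered dosage in humans accompanies transient neonatal diabetes.

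Plagl1 lies on chromosome 10 of GRCm38.p6, from 13090832 to 13131694 on the plus strand. Hymai, a long noncoding RNA, is annotated inside it from 13090845 to 13095900 and was not matched by name in the counts. The counts are per gene, so transcripts from different Plagl1 promoters are not separated. The 250 bases before the annotated start are shown because methylation of CpG sites is the textbook mark of imprinting, with each CpG in capitals (RefSeq, GRCm38.p6, chr10:13090582-13090831, plus strand, 5′ to 3′).
Plagl1 promoter: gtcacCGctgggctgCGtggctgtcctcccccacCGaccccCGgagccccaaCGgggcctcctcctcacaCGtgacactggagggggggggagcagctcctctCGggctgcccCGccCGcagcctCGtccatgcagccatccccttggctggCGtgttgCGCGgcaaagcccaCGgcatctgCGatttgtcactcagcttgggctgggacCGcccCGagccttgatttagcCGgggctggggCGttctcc
This stretch holds 19 CpG. A window of 300 bases, 250 before to 50 after the start, holds 26 CpG against a median of 7 over 32851 RefSeq promoters, and 16.9% of those promoters hold at least as many. The hexamer TGCCGC, which the imprint-keeping protein ZFP57 binds when methylated, was searched on both strands. It occurs 1 time in the window, as GCGGCA from position -90 relative to the start, and 11.6% of promoters hold it. Neither methylation nor binding was measured.

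Reads on genes numbered 20871111 to 30920672 in the Ch libraries, 69925081 to 105892734 in the poly(A) NPC libraries and 78257443 to 93963293 in the astrocyte libraries. Of all Plagl1 reads in a library, 30.0 to 62.7% covered a polymorphism. The Cast share is the percentage of those allele-specific reads that came from the Cast allele. A share under 15% or over 85% was called monoallelic, one of 35 to 65% biallelic, and the rest biased, for at least 20 allele-specific reads. Intervals are 95% Wilson intervals. Beside 0 reads, the share that 3 reads would make is also given, a simpler limit that is somewhat lower than the Wilson one. Both cover counting error only. The X chromosome of male cells, which is all maternal, gave 0.0920 to 0.302% Cast reads in the male libraries, a measure of misassigned reads.

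In the NPC clones, Plagl1 was read from the paternal allele alone, from the maternal allele nearly alone, or from both, depending on the clone. Among 7 clones, 2 were monoallelic for Cast, 3 were monoallelic for 129, 1 was biased towards 129 and 1 was biallelic. In Ch3 all 82 allele-specific reads were Cast (interval 95.5 to 100%), and 0 reads of 129 allow a 129 share of up to 3.66% by the limit of 3 reads. In mG2 the share was 99.6% (98.6 to 99.9), with 524 Cast and 2 129 reads. The paternal allele is the one usually active at this gene, and these 2 clones showed it. The opposite allele was read in the other Ch clones. Ch5 had 3 Cast and 46 129 reads, a share of 6.12% (2.1 to 16.5). Ch7 had 1 Cast and 70 129 reads, a share of 1.41% (0.249 to 7.56). Ch8 had 0 Cast and 54 129 reads, which allows a Cast share of up to 5.56% by the limit of 3 reads (Wilson interval 0 to 6.64). The interval of Ch5 reached past the limit of 15%, and those of Ch7 and Ch8 did not. F5 carried both alleles, at 594 Cast and 707 129 reads and a share of 45.7% (43.0 to 48.4). mG6 lay just outside the monoallelic range, with 578 Cast and 2762 129 reads and a share of 17.3% (16.1 to 18.6).

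**Figure D1:**
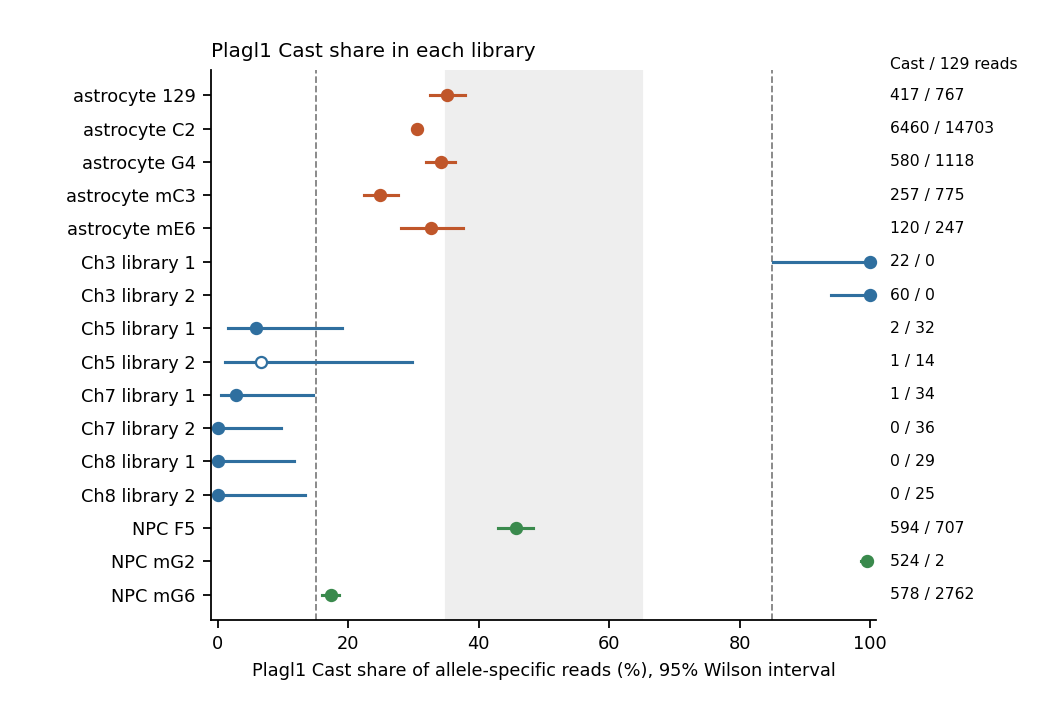
Cast share of Plagl1 (x axis, percent of allele-specific reads) in each of 16 libraries, with 95% Wilson intervals and read counts at the right. Dashed lines mark 15 and 85%, grey the biallelic range, and the open point the library with 15 allele-specific reads. NPC libraries lie at both extremes, apart from F5 (45.7%) and mG6 (17.3%), and astrocyte libraries between 24.9 and 35.2%.

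The 2 libraries of each Ch clone showed the same allele. Ch3 had 22 Cast and 0 129 reads in library 1, and 60 Cast and 0 129 reads in library 2. Ch5 had 2 Cast and 32 129 reads in library 1, and 1 Cast and 14 129 reads in library 2, which falls under the minimum. Ch7 had 1 Cast and 34 129 reads, then 0 Cast and 36 129 reads. Ch8 had 0 Cast and 29 129 reads, then 0 Cast and 25 129 reads. Libraries of a clone thus shared their state in each of the 3 clones with enough reads. This is read from the counts alone, since with 0 or 1 reads of an allele no test could have told the Plagl1 libraries of these 3 clones apart. Across all genes, Fisher's exact test (two-sided, Benjamini-Hochberg) called 137 of 42611 comparisons, or 0.322%. Each compared 1 gene between the 2 libraries of 1 Ch clone.

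In the astrocytes, Plagl1 was read from both alleles in each of the 5 clones, with more reads of the maternal allele. Clone 129 had 417 Cast and 767 129 reads, a share of 35.2% (32.6 to 38.0). Clone C2 had 6460 Cast and 14703 129 reads, a share of 30.5% (29.9 to 31.1). Clone G4 had 580 Cast and 1118 129 reads, a share of 34.2% (31.9 to 36.4). These female clones lay close together, and only clone 129 reached the biallelic range. Clone mC3 had 257 Cast and 775 129 reads, a share of 24.9% (22.4 to 27.6). Clone mE6 had 120 Cast and 247 129 reads, a share of 32.7% (28.1 to 37.7). Altogether 0 of 5 astrocyte clones were monoallelic, 4 were biased towards 129 and 1 was biallelic. The shares averaged 31.5% ± 4.09 (SD, n = 5), against a range of 0 to 100% in the NPC clones. The astrocytes came from clones whose NPC are not among these libraries, so cell type cannot be told apart from clone, and whether the share moves during differentiation was not tested.

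The total Plagl1 level, in CPM (scaled to the reads on genes), varied more among poly(A) libraries than among the Ch clones. In the poly(A) NPC it was 14.6 CPM in mG2, 19.6 CPM in F5 and 74.1 CPM in mG6, a 5.07-fold range. In the astrocytes it was 6.49 CPM in mE6, 22.1 CPM in mC3, 23.8 CPM in clone 129, 41.7 CPM in G4 and 489 CPM in C2, a 75.4-fold range. Clone C2 stood above all other libraries, and the remaining astrocyte values overlapped those of the poly(A) NPC. In the Ch clones it was 2.30 CPM in Ch7, 2.70 CPM in Ch5, 2.97 CPM in Ch8 and 3.29 CPM in Ch3, a 1.43-fold range. All Ch clones were lower than all poly(A) clones, but their libraries also differ in preparation. In bulk RNA, fewer cells expressing the gene and less RNA per cell cannot be told apart.

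**Figure D2:**
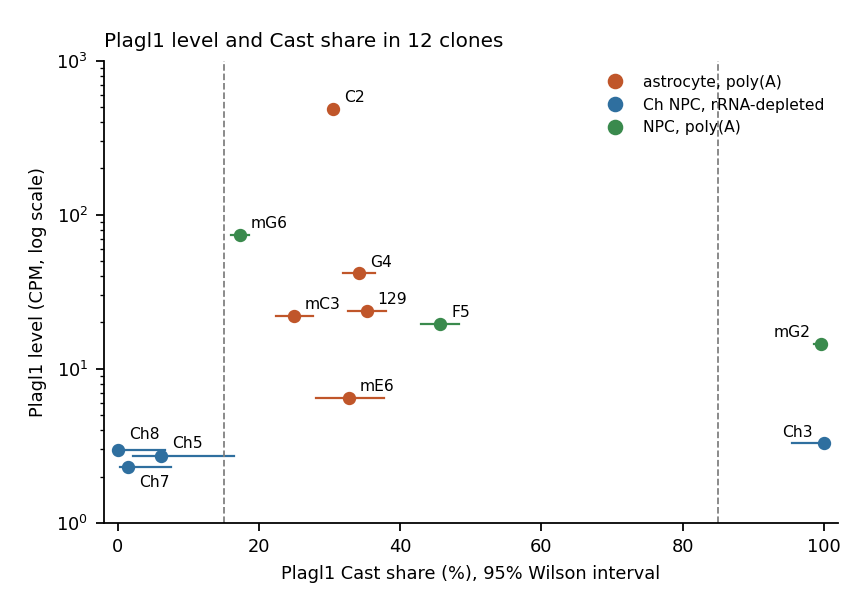
Plagl1 level (y axis, CPM, log scale) against its Cast share (x axis, percent, 95% Wilson interval) in 12 clones, coloured by cell type and preparation, with 1 point a clone and the 2 libraries of a Ch clone summed. The Ch clones at both ends of the x axis lie between 2.30 and 3.29 CPM, and clone C2 stands at 489 CPM.

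Levels can be set beside the allelic states within a preparation. Of the Ch clones, Ch3, which used the Cast allele, had 3.29 CPM, and the clones that used the 129 allele had 2.30 to 2.97 CPM. Among the poly(A) NPC clones, mG2, monoallelic for Cast, had 14.6 CPM, and the biallelic F5 had 19.6 CPM. The highest of these clones, mG6, was the one biased towards 129. Only allele-specific reads enter the values of each allele, which are scaled as CPM is. Cast reads of Plagl1 amounted to 5.61 CPM in F5, 7.07 in mG6 and 7.49 in mG2, a 1.34-fold range. The 129 reads amounted to 6.68 CPM in F5, 33.8 in mG6 and 0.0286 in mG2, the last from 2 reads. Among these 3 clones, each with 1 library, allele-specific reads of Cast varied less than those of 129. The low 129 value of mG2 belongs to the allelic extremes by which Plagl1 was selected, so no conclusion is drawn from this contrast. Allele-specific reads made up 62.7% of Plagl1 reads in F5, 55.2% in mG6 and 51.5% in mG2, and the values were not corrected for this. In the Ch clones, the allele in use gave 1.67 CPM in Ch3, 0.868 in Ch5, 1.20 in Ch7 and 1.04 in Ch8. These values were not corrected either, and the allele-specific part of Plagl1 reads differed between clones. It was 50.6% in Ch3, 34.3% in Ch5, 53.0% in Ch7 and 35.1% in Ch8. In the astrocytes, both alleles were highest in C2 and lowest in mE6. Cast reads ranged from 1.28 to 80.9 CPM there and 129 reads from 2.63 to 184 CPM.

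**Figure D3:**
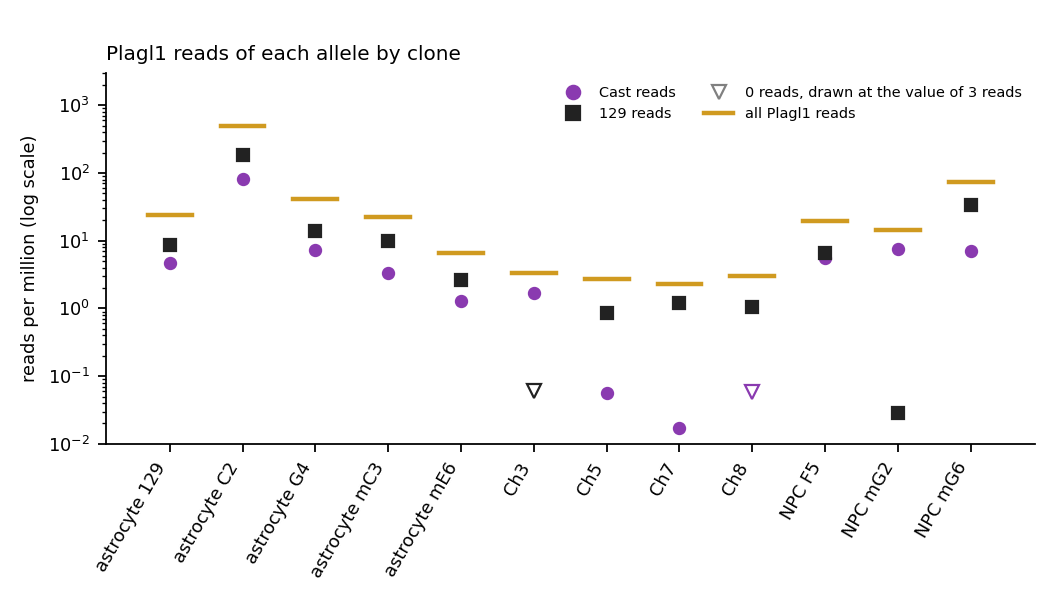
Plagl1 reads in CPM (y axis, log scale) in 12 clones, with circles for Cast reads, squares for 129 reads and bars for all Plagl1 reads. Open triangles mark 0 reads, drawn at the value of 3 reads; in the poly(A) NPC clones the Cast circles lie between 5.61 and 7.49 and the 129 squares between 0.0286 and 33.8.

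The Ch clones used different Plagl1 alleles without a detectable difference in total level. Library values were 2.73 and 3.70 CPM in Ch3, 3.28 and 2.03 CPM in Ch5, 2.1 and 2.52 CPM in Ch7, and 2.94 and 3.00 CPM in Ch8. The libraries of Ch5 alone spanned most of this range, so no neighbours in the order of clones were separated beyond their spread. Clones further apart in that order were, as both libraries of Ch7 lay below those of Ch8 and Ch3. After normalization across libraries (TMM), means were 3.27 CPM ± 0.568 in Ch3, 2.53 ± 0.860 in Ch5, 2.37 ± 0.261 in Ch7 and 2.99 ± 0.153 in Ch8 (SD, n = 2 each). The edgeR quasi-likelihood F test over the 4 clones gave Plagl1 an adjusted p of 0.521, whereas 2834 of 17095 genes, or 16.6%, passed at an adjusted p under 0.05. That number was 1868 without library 1 of Ch3, 1509 without its library 2, and 1832 and 1803 without library 1 or 2 of Ch7. Between clones taken in pairs, the Plagl1 differences ran from -0.48 (Ch7 minus Ch3) to 0.33 (Ch8 minus Ch7) on the log2 scale. Of these 6 edgeR comparisons, 0 passed and 0 had an unadjusted p under 0.05, with adjusted p-values of 0.306 to 0.886. Over all genes 7.91% of the 102570 tests in the 6 pairs passed. These p-values measure the spread between the libraries at hand, which for a Ch clone are libraries of 1 line.

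Between astrocytes and poly(A) NPC, Plagl1 had no shift beyond the spread of the clones. TMM-normalised levels averaged 122 CPM ± 221 (SD, n = 5) in astrocytes and 35.9 CPM ± 33.6 (SD, n = 3) in NPC, with medians of 22.5 and 19.3 CPM. The log2 difference, astrocytes minus NPC, was 1.77 with a standard error of 1.43 and an edgeR quasi-likelihood adjusted p of 0.395. The direction rested on 1 library, since without astrocyte clone C2 the difference was -0.62, with an edgeR adjusted p of 0.574. With sex as a covariate it was -0.23, and without NPC clone mG6 it was 2.84. Over all genes, 4644 of 18192, or 25.5%, passed at an adjusted p under 0.05, with 13.0% higher and 12.6% lower in astrocytes. That number was 2667 without F5, 2269 without mG2 and 3030 without mG6.

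Among the astrocyte libraries, the sum of the fibroblast markers, most of it Col1a1, was highest and lowest where Plagl1 was, but not every marker was. The summed level of Col1a1, Col1a2, Lum, Pdgfrb and Acta2 was 212 CPM in C2, 38.4 in G4, 36.3 in mC3, 17.6 in clone 129 and 4.0 in mE6. Col1a1, a collagen chain, was the most abundant in each astrocyte library, at 200 CPM in C2, and Col1a2, which partners it in type I collagen, had 3 reads in C2, 6 in mE6 and 0 in clones 129, G4 and mC3. Acta2 (7.01 CPM in C2, 0.479 in mE6) and Pdgfrb (2.03 and 0.0426 CPM) were, like Col1a1 and Plagl1, highest in C2 and lowest in mE6. Lum was not, with 5.52 CPM in clone 129, 2.69 CPM in C2 and the lowest level in G4. In the NPC libraries this sum was 1.83 to 5.92 CPM. The summed astrocyte markers were lowest in C2, at 1381 CPM against 3532 to 4780 CPM in the other astrocyte libraries. The part of either in the Plagl1 level was not tested. Marker genes were tested beside the 25.5% of all genes that passed. Of 8 astrocyte markers, 3 rose in edgeR, Gfap, Aqp4 and Slc1a2, and did so in each of the 8 fits that left out 1 library. Aldh1l1 passed as lower, at an adjusted p of 0.0366, but not without G4, mC3, F5, mG2 or mG6, where edgeR gave adjusted p-values of 0.0655 to 0.100. Of 6 NPC markers, Nes and Olig2 fell and the others did not pass. Of 4 pluripotency markers tested, Pou5f1 fell and Tdgf1 rose from an NPC mean of 0.133 CPM, the latter not without F5 or mG2 (edgeR adjusted p of 0.0686 and 0.0782). Pou5f1 was hardly detected, with 27 to 58 reads in a poly(A) NPC library and 0 to 2 in an astrocyte library. Of 5 neuron markers, Snap25 passed as higher, but not without C2, mG2 or mG6 (edgeR adjusted p of 0.0593, 0.116 and 0.113). Of 4 fibroblast markers tested, Col1a1 passed as higher, but not without F5, mG2 or mG6 (edgeR adjusted p of 0.0749, 0.0713 and 0.0673), and 2 passed without mE6. Of 3 oligodendrocyte markers tested in edgeR, 0 passed, 1 had an unadjusted p under 0.05, and DESeq2 called 1. Without mE6 or F5, edgeR called 1 of them. Median log2 differences were 2.27 for astrocyte, -1.37 for NPC, -0.66 for pluripotency, 0.02 for neuron, -0.51 for oligodendrocyte and 3.21 for fibroblast markers, against 0.08 over all genes and 1.77 for Plagl1.

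The genes around Plagl1 did not share its pattern. They were the 4 nearest on each side with enough reads, Sf3b5, Utrn, Epm2a and Fbxo30 before it and Ltv1, Phactr2, Fuca2 and Pex3 after it, at distances of 46903 bp (Ltv1) and more. Of their 96 Cast shares, 8 genes in 12 clones, 92 were biallelic, 3 biased and 1 monoallelic, and the exceptions were all of Fuca2, an enzyme gene. Fuca2 had a share of 99.3% in F5, where Plagl1 was biallelic. The SD over the 12 clones was 1.86 to 14.3 for the neighbours and 33.2 for Plagl1. In Ch3, Ltv1, the nearest gene, had a share of 56.2%, and in Ch8 it had 55.2%, so the nearest gene was read from both alleles whichever allele of Plagl1 was in use. The median share of genes on chromosome 10 was 48.5 to 49.7% over the clones, and that of genes within 5 Mb on each side of Plagl1 was 48.7 to 52.1%. Both copies of the region were thus expressed in every clone.

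**Figure D4:**
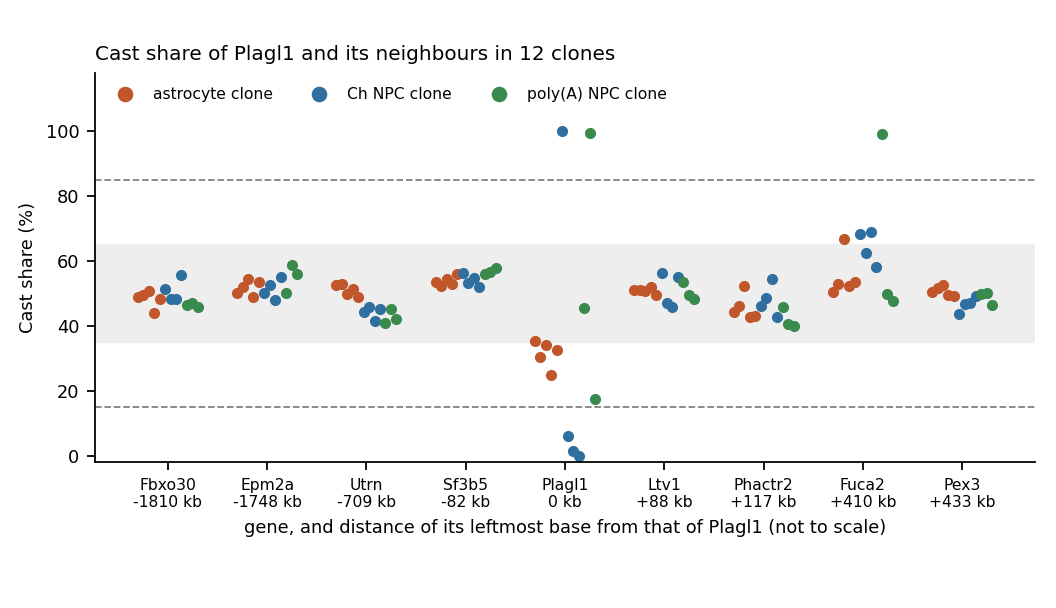
Cast share (y axis, percent) of Plagl1 and its 8 neighbours (x axis, in genomic order, with the distance from Plagl1 in kb, not to scale) in 12 clones, 1 point a clone. Dashed lines mark 15 and 85% and grey the biallelic range; 92 of the 96 points of the neighbours lie in it, and those of Plagl1 spread from 0 to 100%.

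Other imprinted genes were compared with Plagl1 in each clone. Of the list of paternally expressed imprinted genes, 19 were found in the counts and 9 to 13 had enough reads in a clone. In mG2, 10 of 13 were over 85% Cast, and Plagl1 was too. In Ch3 the number was 8 of 13, with Plagl1 again Cast. In Ch5, Ch7 and Ch8, where Plagl1 came from the maternal allele, 6 of 12, 7 of 13 and 6 of 12 were over 85% Cast and 4, 5 and 5 were biallelic. The median Cast share on chromosome 12 was 100% in these 3 clones, so a listed gene there could count as Cast whatever its imprint. Mest, Airn, Peg3 and Nap1l5, which are read from the paternal chromosome in normal tissue, were at 98 to 100% Cast in all 4 Ch clones. The maternal Plagl1 signal of these 3 clones thus stood beside some imprinted genes of the usual parental state and some read from both alleles. Sgce and Peg10, neighbouring imprinted genes on another chromosome, differed between the same clones, with Sgce at 99.6% in Ch3 and 55 to 62.8% in Ch5, Ch7 and Ch8. Peg10 was at 99.9% in Ch3 and 79.5 to 82.3% in those 3. Ndn was at 4.35% in Ch5, from 23 reads, the only listed gene under 15% in that clone, and at 50.6 to 52.7% in the other Ch clones.

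How far Plagl1 resembled the imprinted list varied over the remaining clones. In F5, where Plagl1 was biallelic, 0 of 11 listed genes were over 85% Cast and 8 of 11 were biallelic. In mG6, where Plagl1 was biased towards 129, 5 of 13 were over 85%, among them Mest, Sgce and Snrpn, and 7 of 13 were biallelic. The male astrocyte clones mC3 and mE6 had 9 of 13 and 10 of 12 over 85%, but Plagl1 shares of 24.9 and 32.7%. The female astrocyte clones 129, C2 and G4 had 3 of 9, 0 of 11 and 2 of 11, with Plagl1 shares of 35.2, 30.5 and 34.2%. Some listed genes were there read from the maternal allele, as Plagl1 was in Ch5, Ch7 and Ch8, namely Airn and Sgce in clone 129, Mest in C2 and Nap1l5 in G4, all under 15% Cast. Dlk1 was at 4.76% in Ch3, from 42 reads. The Plagl1 share in astrocytes thus varied little while the state of the other imprinted genes varied widely. Igf2r, which is expressed from the maternal allele, had a share of 4.81 to 8.83% in the Ch clones and 63.4% in F5. Zim1, also maternally expressed, was at 9.52% in Ch3 but 33.9 to 47.1% in Ch5, Ch7 and Ch8, and at 87.3% in mC3 and 92.3% in mE6. H19 was at 95.6% in astrocyte clone 129. None of these differences between Plagl1 and the other genes was tested.

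**Figure D5:**
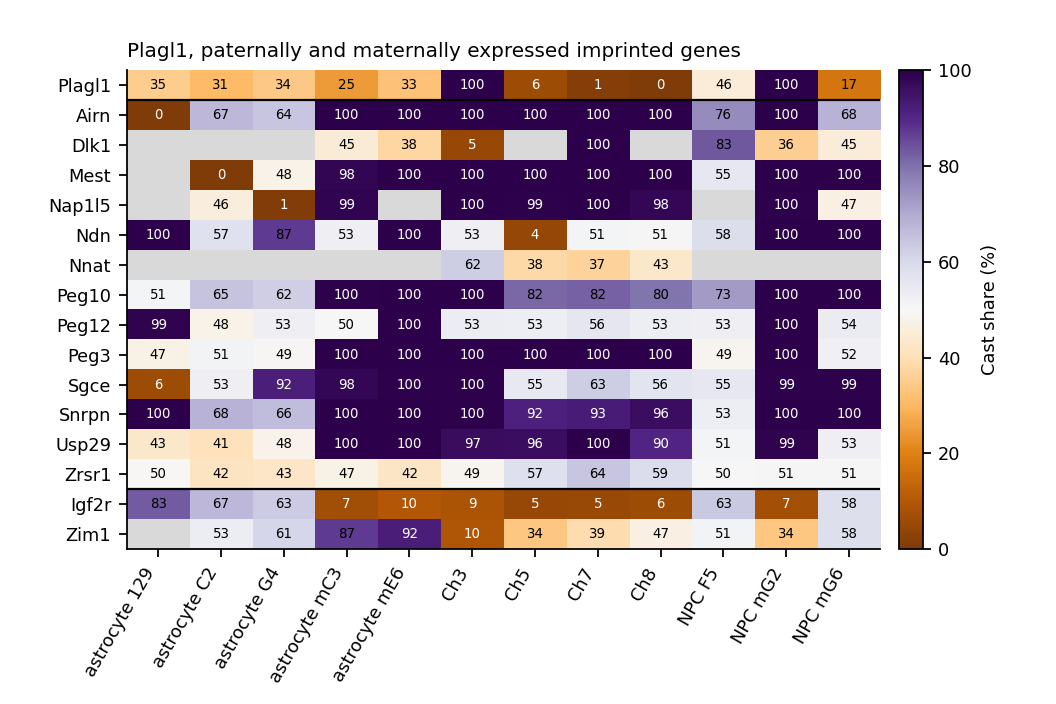
Cast share (colour and printed whole percent) of Plagl1 (top), of paternally expressed imprinted genes (middle) and of the maternally expressed Igf2r and Zim1 (bottom) in 12 clones, grey where a gene had fewer than 20 allele-specific reads. Only genes with a value in at least 4 clones are drawn; Plagl1 is near 0 in Ch5, Ch7 and Ch8, where Mest, Airn and Peg3 are near 100.

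Genes monoallelic for Cast in 1 NPC clone and for 129 in another, by the limits of 15 and 85%, were uncommon in these data. Of 10052 autosomal genes with enough reads in all 7 NPC clones, 48, or 0.478%, had at least 1 clone under 15% and 1 over 85%. Plagl1 is among them by the way it was chosen. The Ch clones that share the maternal state of Plagl1 were also alike elsewhere. Their median share on chromosome 12 was 100% in Ch5, Ch7 and Ch8 but 49.7% in Ch3. Over the 47 other genes of that set, Pearson's r between the Cast shares of Ch5, Ch7 and Ch8 was 0.496 to 0.551, against -0.326 to 0.108 for the other 18 pairs of NPC clones. Without genes of chromosome 12, an alternative chosen after seeing the data, 44 genes gave 0.366 to 0.425 against -0.338 to 0.269. Whether the maternal Plagl1 state of these 3 clones arose separately in each was not tested.

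Of the other PLAG family factors, Plagl2 did not share the allelic pattern of Plagl1, and Plag1 had too few allele-specific reads in every clone to compare. Plagl2 was biallelic in all 12 clones, at 40.5 to 54.6%, and its TMM-normalised level averaged 9.41 CPM ± 4.76 (SD, n = 5) in astrocytes and 19.5 CPM ± 2.47 (SD, n = 3) in NPC. Its edgeR adjusted p of 0.0725 missed the threshold, although DESeq2 called it, as did edgeR without astrocyte clone 129. Of the family, edgeR thus called 0 of 2 tested members between the cell types, with 1 unadjusted p under 0.05 and 25.5% of all genes passing. These members are Plagl1 itself and Plagl2, at log2 differences of 1.77 and -1.05, and their median of 0.36 (0.08 over all genes) lies between opposite values. Plag1 passed the expression filter of the Ch comparison only, at 0.245 to 0.384 CPM, and 0 of 3 members were called there (16.6% of all genes), with 1 unadjusted p under 0.05, that of Plagl2. DESeq2 called 0 there too, and edgeR with a block for replicate number called 1.

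Genes reported elsewhere as targets of Plagl1 passed in 3 of 10 cases between astrocytes and NPC, where 25.5% of all genes passed, so the list did not stand out. Adcyap1r1, the receptor for the peptide PACAP, averaged 72.1 CPM in astrocytes and 334 CPM in NPC (log2 -2.21, edgeR adjusted p of 0.00752). Apaf1, a core factor of apoptosis, averaged 43.5 and 105 CPM (log2 -1.27, edgeR adjusted p of 0.0063). Both fell in each of the 8 fits that left out 1 library. Pparg, a nuclear receptor, was higher, at 4.15 against 0.383 CPM, but did not pass without F5, mG2 or mG6 (edgeR adjusted p of 0.0714, 0.0745 and 0.067). The median log2 difference of the list was -0.60, against 0.08 over all genes. Cdkn1a, which inhibits the cell cycle and has been described as a target, averaged 541 and 601 CPM and did not pass (edgeR adjusted p of 0.795). In the Ch comparison, 3 of 7 tested targets passed, against 16.6% of all genes. Cdkn1a averaged 332 CPM in Ch3, 255 in Ch5, 195 in Ch7 and 235 in Ch8 (edgeR adjusted p of 0.000934). Ch3, the clone with paternal Plagl1, was highest, but it also differed in cell type markers. S100b averaged 10.7 CPM in Ch3 and 2.71 to 4.51 CPM in the other Ch clones, and Dcx 10.1 and 2.96 to 6.05 CPM. Some other markers were not highest in Ch3. Gfap, Slc1a2 and Slc1a3 were highest in Ch7, with Slc1a3 at 869 CPM against 591 CPM in Ch3 and 609 CPM in Ch8. Slc1a3 did not pass without library 2 of Ch7 (edgeR adjusted p of 0.0748), nor Gfap without its library 1 (edgeR adjusted p of 0.0595). The markers thus did not move together. The Plagl1 allele of Ch3 cannot be told apart from other differences of that clone. Of the markers, edgeR called 7 of 8 for astrocytes and 3 of 6 for NPC between the Ch clones (16.6% of all genes). The latter count was 1 without library 2 of Ch3 and 5 without library 1 of Ch8. From the remaining lists it called 2 of 4 neuron, 1 of 2 pluripotency, 1 of 3 oligodendrocyte and 1 of 2 fibroblast markers. The pluripotency marker Esrrb did not pass without library 2 of Ch3 (edgeR adjusted p of 0.0655). The oligodendrocyte marker Cnp did not pass without a library of Ch7 (edgeR adjusted p of 0.0584 and 0.0919). The other targets called were Adcyap1r1 and Socs3, a feedback inhibitor of cytokine signalling. Only 1 target passed without library 2 of Ch3. Adcyap1r1 did not pass without that library (edgeR adjusted p of 0.0575). Socs3 did not pass without a library of Ch3 or Ch7 (edgeR adjusted p of 0.0601 to 0.189).

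In the network of imprinted genes described around Plagl1, 3 of 15 members passed between the cell types (25.5% of all genes) and 7 of 11 tested members passed among the Ch clones (16.6% of all genes). Between the cell types Meg3, a maternally expressed noncoding RNA, fell from 0.843 to 0.0264 CPM, in each of the 8 fits that left out 1 library. Gnas, a G-protein subunit, averaged 1583 CPM in astrocytes and 742 CPM in NPC and passed, but not without mG2 or mG6 (edgeR adjusted p of 0.0611 and 0.0589). Mest averaged 90.5 and 2111 CPM and passed (edgeR adjusted p of 0.0414), but of the 8 fits that left out 1 library it passed only without astrocyte clone 129 (otherwise 0.0521 to 0.116). The number called was 1 without mG2 and 1 without mG6. The median log2 difference of the network was -0.04, against 0.08 over all genes. Among the Ch clones, Gatm, Meg3, Ndn, Nnat and Sgce passed in edgeR in each of the 8 fits that left out 1 library. Meg3 averaged 1.78 CPM in Ch3 and had 0 reads in Ch5, Ch7 and Ch8, the clones in which the median Cast share on chromosome 12, where it lies, was 100%. Igf2r did not pass without library 2 of Ch3 or a library of Ch7 (edgeR adjusted p of 0.0533 to 0.095), nor Peg3 without either library of Ch3 or Ch7 or library 2 of Ch5 (edgeR adjusted p of 0.0543 to 0.33). Sgce averaged 22.7 CPM in Ch3 and 39.4 to 43.5 CPM in Ch5, Ch7 and Ch8, the clones in which both its alleles were read. Its neighbour Peg10, which is outside this network and also had a lower Cast share in those clones, was not higher there. Peg10 averaged 1788 CPM in Ch3 and 1382 to 1766 CPM in those clones (edgeR adjusted p of 0.334). A link between level and allelic state was not tested. Nnat, a neuronal membrane protein, averaged 288 CPM in Ch3 and 535 to 694 CPM in those clones.

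The RNA of factors that keep imprints, such as that of Plagl1, was compared in the same way. Of 12 tested, 4 passed between the cell types, all lower in astrocytes, against 25.5% of all genes passing and 12.6% passing as lower, and the median log2 difference was -0.57 (0.08 over all genes). Dnmt1, the maintenance DNA methyltransferase, averaged 72.6 CPM in astrocytes and 192 CPM in NPC, and Uhrf1, its cofactor, 4.50 and 128 CPM. Both fell in each of the 8 fits that left out 1 library. Trim28 did not pass without mC3, F5 or mG2, nor Dnmt3l without F5 or mG2, and 2 of 12 passed without F5 and 2 of 12 without mG2. Dnmt3l lay near the floor, with 17 reads in F5, 10 in mG2, 11 in mG6 and 0 to 2 in an astrocyte library. Zfp57 averaged 11.7 and 12 CPM and did not pass (edgeR adjusted p of 0.98). Across the Ch clones, 2 of 11 passed (16.6% of all genes), and 1 of 11 without library 2 of Ch3 and 4 of 11 without library 1 of Ch8. Zfp57 averaged 5.91 CPM in Ch3, 8.70 in Ch5, 11.7 in Ch7 and 10.7 in Ch8 (edgeR adjusted p of 0.00534, and 0.0542 without library 2 of Ch3). Trim28, which ZFP57 recruits, averaged 228 CPM in Ch3, 226 in Ch5, 298 in Ch7 and 325 in Ch8 (edgeR adjusted p of 0.0103). The clone with paternal Plagl1 had the lowest Zfp57 level, and in Trim28 it lay level with Ch5, which had maternal Plagl1.

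The wider imprinted lists and the cyclin-dependent kinase inhibitors, which arrest the cell cycle as Plagl1 does, complete the comparison. Between the cell types, 3 of 15 tested paternally expressed imprinted genes passed, Peg12 and Mest lower and Zrsr1 higher, and 1 of 6 maternally expressed ones, Meg3, against 25.5% of all genes. Peg12 averaged 15.6 CPM in astrocytes and 168 CPM in NPC, and it and Zrsr1 passed in each of the 8 fits that left out 1 library. Among the Ch clones, 5 of 14 and 2 of 4 passed, against 16.6% of all genes, and without library 2 of Ch3 it was 3 of the paternally expressed genes. Without library 2 of Ch3 or either library of Ch7, 1 maternally expressed gene passed. Of 6 kinase inhibitors, 1 passed between the cell types (25.5% of all genes), Cdkn1b, which rose from 81.4 to 226 CPM in each of the 8 fits that left out 1 library. In the Ch comparison 2 of 6 passed (16.6% of all genes), Cdkn1a and Cdkn2c, the latter not without a library of Ch3 or Ch7 (edgeR adjusted p of 0.0621 to 0.205). Only Cdkn1a was then called. Between the cell types the median log2 differences were -0.32 for paternally and -0.04 for maternally expressed genes and -0.11 for the inhibitors, against 0.08 over all genes.

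The genes most like Plagl1 in Cast share, by Pearson's r over the 12 clones among 9577 autosomal genes, had far narrower ranges. E430018J23Rik had an r of 0.874 and shares of 52.0 to 72.3%, Dcun1d5 an r of 0.856 and 42.0 to 59.0%, and Ccdc80 an r of 0.832 and 17.6 to 42.4%. Eif3d (0.825) and Akap1 (0.804) stayed between 45.1 and 54.6%. None of these 5 was monoallelic in any clone. The lowest r belonged to Celf1 (-0.894), Slx1b (-0.885) and Nrxn3 (-0.875). Nrxn3 lies on chromosome 12 and was at 100% in Ch5, Ch7 and Ch8. With Spearman's rho, 0 of the 5 highest genes were the same, and Ppp1r12c came first. The list therefore depends on the measure, and no gene among the 5 highest by r followed Plagl1 to both extremes.

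In level, over the 8 poly(A) libraries and 18191 genes, the closest by Pearson's r of log2 CPM were ENSMUSG00000102428.1 (0.951), Sp2 (0.945), Dnmt3a (0.932), Ggnbp1 (0.931) and Por (0.928). All 5 were highest in astrocyte clone C2, where Plagl1 was highest. Dnmt3a, a DNA methyltransferase, was at 417 TMM-normalised CPM in C2 and at 126 to 236 CPM in the other libraries, against 517 and 6.76 to 74.6 CPM for Plagl1.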

How the data were processed

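The authors aligned the reads to a mouse genome (GRCm38) masked at polymorphisms between the strains with TopHat2 2.1.0 and Bowtie2. They assigned reads to alleles with SNPsplit and obtained gene counts of read pairs from featureCounts 1.5.1. The deposited values are Cast, 129 and all reads as a raw count per gene, and a Cast fraction that was not used, since it follows from the counts. No annotation version was given. Of 50600 identifiers, 32722 had a symbol and 26023 a RefSeq position on GRCm38.p6.

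For Plagl1 shares, both libraries of a Ch clone were added up, and all tests kept them apart. Levels were compared with edgeR 4.0.16 (quasi-likelihood F test, TMM, filterByExpr, adjusted p under 0.05 after Benjamini-Hochberg) over 5 astrocyte and 3 poly(A) NPC libraries, and over 8 Ch libraries. Ch libraries stayed out of the former because their preparation differs. Shares of replicate libraries were compared per gene with Fisher's exact test, for at least 20 reads in both. For Plagl1 that test is not used, as 1 allele had 0 or 1 reads in Ch3, Ch7 and Ch8, and library 2 of Ch5 fell under the minimum. Both steps were tested on simulated data. The scripts ran in Python 3.11.15 (scipy 1.17.1, matplotlib 3.10.9, pandas 2.3.3, numpy 2.4.6) and R 4.3.3. Alternatives were other limits, read minimums, normalizations, filters and covariates, DESeq2 1.42.0, and leaving out each library.

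Plagl1 and the gene lists were chosen with earlier results of these data known. The genes named are Plagl1, the listed genes, the 4 nearest measured genes on each side, the 5 highest and 3 lowest in r of Cast share, and the 5 highest in r of level. The lists hold PLAG family genes, reported targets, an imprinted network, imprinted genes, imprint maintenance factors, kinase inhibitors and markers of NPC, astrocytes, pluripotent cells, neurons, oligodendrocytes and fibroblasts. Kcnq1ot1, Peg13, Mirg, Rian, Cdkn2d and Sox1 were not found by name.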

Additional observations from a re-analysis of the deposited data

Results flagged for a closer look

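Among 19 measures of Plagl1, its neighbours and marker sums tested within the 5 astrocyte libraries, 5 had a library far from the others. The rule took the gap between the outermost library and the next as a share of the range, on CPM or percent without a log scale. Gaps on a log scale were not computed, and how often chance gives such gaps in CPM is not known here. Of the 5, 3 count the same Plagl1 reads of clone C2, so the number is not set against a chance rate. The Plagl1 level of C2, 489 CPM, stood apart from 6.49 to 41.7 CPM in the other clones. So did its Plagl1 Cast reads, at 80.9 CPM, and its Plagl1 129 reads, at 184 CPM, while its Cast share of 30.5% did not. The summed fibroblast markers of C2, at 212 CPM, stood apart as well, and their part in the Plagl1 level was not tested. In clone G4, the Cast share of the Plagl1 neighbour Fuca2 was 66.9%, against 50.5 to 53.4% in the other astrocyte clones.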

How the results depend on the processing

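Except for Ch5, the monoallelic Plagl1 clones kept their state under the alternatives tried. In all 6, 2 clones were monoallelic for Cast, and 2 or 3 were monoallelic for 129. Ch5 left the count at limits of 5 and 95%, at a minimum of 50 reads and with library 2 alone. The replicate test was not used for Plagl1, with 0 to 3 reads of an allele in each Ch clone, and a minimum of 50 left no Plagl1 test. The astrocyte difference kept its direction in 11 of 13 alternatives and reversed to -0.23 with sex as a covariate. Leaving out a library gave -0.62 (without C2) to 2.84 (without mG6), with edgeR adjusted p-values of 0.290 to 0.943 over all alternatives that gave one. DESeq2 gave Plagl1 no p-value there, which it withholds where 1 count is extreme. The genes called numbered 2269 (without mG2) to 4849 (without astrocyte clone 129) with a library left out, 6277 with DESeq2 and 6871 with all 7 NPC clones. Among the Ch clones the edgeR adjusted p of Plagl1 was 0.257 to 0.788 with a library left out and 0.501 with a block for replicate number, and 3391 genes were called with the block. Deviations of the libraries by number correlated at -0.180 to 0.279 over 6 pairs of clones, so they were not treated as paired. The genes called numbered 1509 to 3244 with a library left out and 4361 without the expression filter, where 31234 genes were tested. Of the 5 genes most like Plagl1 in Cast share, 0 remained with Spearman's rho and Ppp1r12c came first. At least 50 reads in all clones could not be tried, since Plagl1 has 49 in Ch5. Likeness of clones without chromosome 12 was chosen after seeing the data. Depth limits the Ch clones most, with 49 to 82 allele-specific Plagl1 reads each.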
